A study of Oryctolagus cuniculus with 12 samples.

Results

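This report describes genes that encode brakes on the MAP kinase cascade and on the receptors above it: the dual-specificity phosphatases DUSP1, DUSP2, DUSP4, DUSP5, DUSP6, DUSP8 and DUSP10, the Sprouty genes SPRY2 and SPRY4, and ERRFI1. These 10 genes were taken by name from the gene table of the study, and 9 of the 10 had a row of that name among the 20566 rows. DUSP8 had none, so no value is given under that name. All 9 were among the 14835 genes that passed the filter on low counts. RNA was measured by stranded mRNA sequencing in conjunctiva, the mucous membrane over the white of the eye, from female Japanese White rabbits whose age was not in the sample labels. Right eyes had a trabeculectomy, a glaucoma operation that drains aqueous humor under the conjunctiva into a blister called a bleb, and the bleb tissue was sampled in 3 libraries per time: TL3h after 3 hours, TL3d after 3 days and TL14d after 14 days. The 3 control libraries came from conjunctiva of left eyes without the operation. By the study's methods, every operated eye also received mitomycin C, which blocks cell division, an injection of the glucocorticoid betamethasone into the conjunctiva, and an antibiotic ointment with erythromycin and colistin, whereas no drug is described for the control eyes. Surgery, mitomycin C, betamethasone and the ointment therefore cannot be told apart in any comparison with control. The sources used here state neither which control eye belonged to which operated eye nor at which time control tissue was taken.

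MAP kinases (ERK, JNK and p38) carry signals from growth factor receptors and stress to the nucleus, and they are switched on by phosphorylation of a threonine and a tyrosine. Dual-specificity phosphatases of the MAP kinase phosphatase group remove both phosphates. Many of these genes are themselves induced by the kinases they switch off, which makes them negative feedback genes. Sprouty proteins act further up, between receptor tyrosine kinases and RAF, and ERRFI1, also called MIG6, binds the kinase domain of EGFR and its relatives. In surface epithelia such as the conjunctiva and cornea, EGFR signalling is known for its part in wound closure.

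The libraries held 27111348 to 38591425 estimated counts, at which 3 counts correspond to 0.0712 to 0.124 CPM (the count of a gene relative to the TMM-adjusted total of its library), and the measured members lay above this in every library. Epithelial genes were present in every library. The summed level of 6 markers such as KRT4, CDH1 and PAX6 was 4076 to 8562 CPM in control, 4059 to 6663 CPM at 3 hours, 6202 to 16312 CPM at 3 days and 8623 to 12649 CPM at 14 days. Of the 6, 1 was called higher and 1 lower at 3 hours, and 1 higher at 3 days. Marker levels of several cell types moved with the time after surgery. The summed level of 6 neutrophil markers was 3.49 to 82.4 CPM in control, 1050 to 2792 CPM at 3 hours, 126 to 739 CPM at 3 days and 3.33 to 114 CPM at 14 days. All 6 of these markers passed the test as higher at 3 hours, and 1 did at 3 days. The 5 macrophage markers summed to 68.1 to 601.6 CPM in control, 637 to 973 CPM at 3 hours, 1245 to 2003 CPM at 3 days and 89.3 to 408.5 CPM at 14 days, with 2 and 3 of them higher at 3 hours and at 3 days. No marker of either list was at 0 in all libraries. In bulk tissue, fewer cells of a type and less RNA per cell cannot be told apart, and the part of these and the following markers in the results on the members was not tested. The 6 fibroblast markers summed to 12161 to 76287 CPM in control, 105042 to 125553 CPM at 3 hours, 1328 to 64685 CPM at 3 days and 11014 to 57032 CPM at 14 days, and none of the 6 passed the test. The 5 endothelial markers summed to 63.7 to 275 CPM in control and 606 to 1211 CPM at 3 hours, where 2 of the 5 were called higher. At 3 days they summed to 294 to 548.5 CPM, above every control, with none of the 5 called, and at 14 days to 88.8 to 282 CPM. Skeletal muscle markers were high in control replicate 2 (271 CPM) and TL3d replicate 3 (299.6 CPM) and at most 6.80 CPM elsewhere. Pigment cell markers summed to 171 CPM in TL14d replicate 2 and to at most 68.3 CPM elsewhere. The 4 Schwann cell markers summed to 0.27 to 3.81 CPM at 3 days against 5.40 to 13.15 CPM in control, and none of the 4 was called. Several libraries differed from others of their group. TL14d replicate 1 correlated more closely with the control libraries (mean r = 0.959) than with its own group (mean r = 0.883), and it had the lowest neutrophil sum of all 12 libraries. Control replicate 3 held the highest neutrophil, macrophage and fibroblast sums of the 3 controls, with a mean r of 0.927 to the other controls. TL3d replicate 3 had the same mean r to its group and the highest fibroblast sum of the 3 libraries at 3 days.

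**Figure D1:**
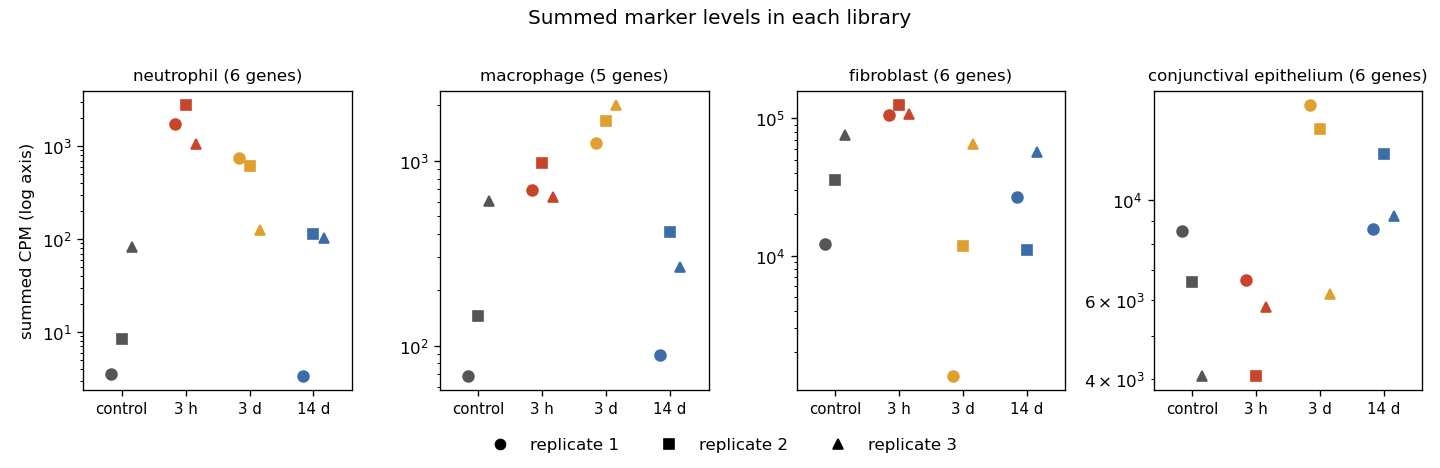
Summed CPM (log axis) of marker genes of 4 cell types in each of the 12 libraries, grouped by time after surgery, with the symbol giving the replicate. All 3 libraries at 3 hours lie at 1050 CPM or above for neutrophil markers, while TL14d replicate 1 lies at 3.33 CPM, beside the controls.

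At 3 hours, 8 of the 9 measured members were higher than in control. They were DUSP1, DUSP2, DUSP4, DUSP5, DUSP6, SPRY2, SPRY4 and ERRFI1, and DUSP10 did not pass the test. Across all genes tested, 23.2% were called higher in the same comparison. The members were chosen with earlier results of these data known, so their count beside this share is a description only. The test was edgeR's quasi-likelihood test with Benjamini-Hochberg adjustment over the 14835 genes and a threshold of 0.05, and the same test gives every adjusted p below. In these 8 members each library at 3 hours lay above each control library, which was so for 28.9% of all genes tested. The median log2 fold change of the 9 members was 4.30, and that of all genes was 0.02. With library sizes alone, which shifted the median of all genes to -0.47, the count was still 8, as it was with both control replicate 3 and TL14d replicate 1 left out.

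**Figure D2:**
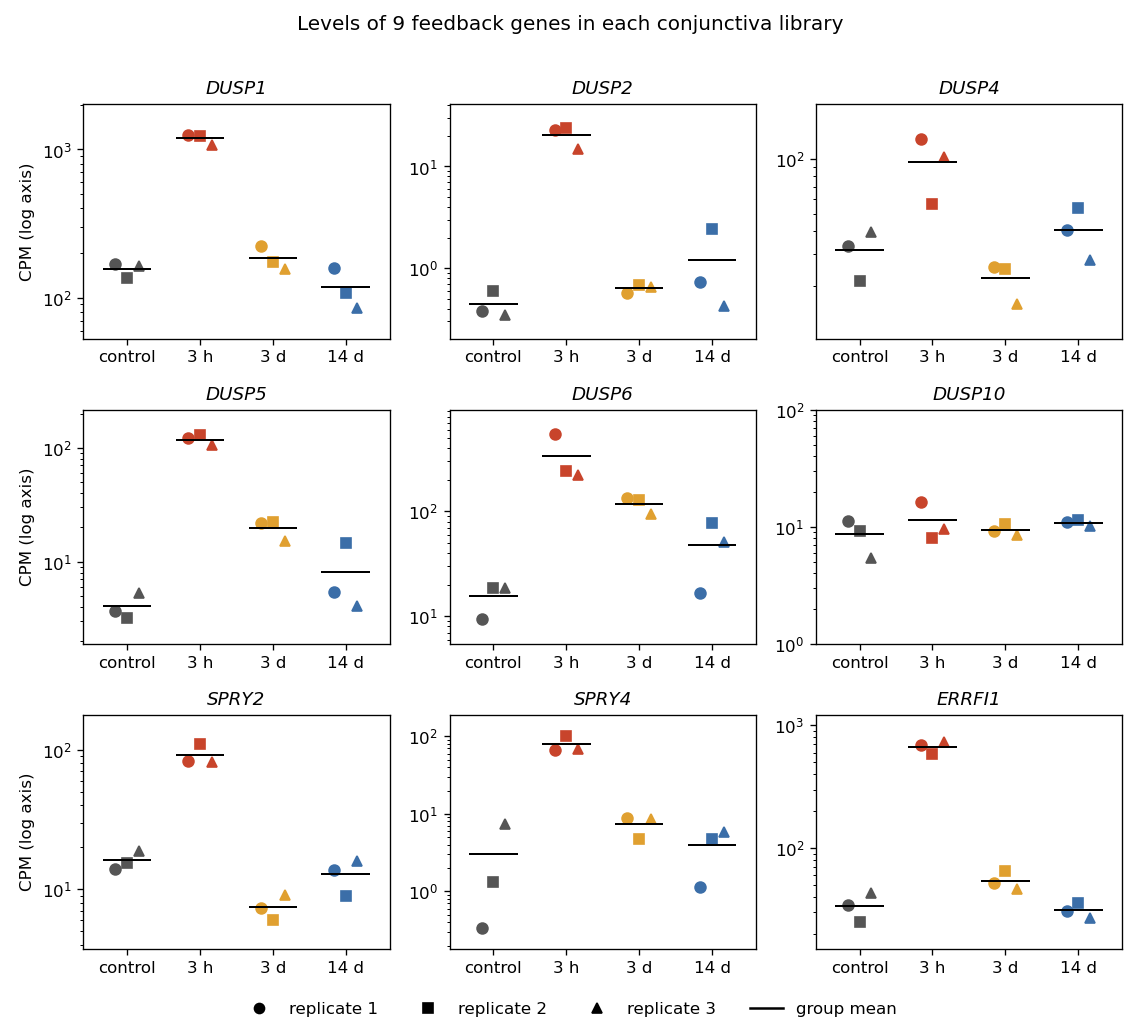
CPM (log axis) of the 9 measured members in each library, with the symbol giving the replicate and the bar the mean of 3 libraries. In 8 panels the 3 libraries at 3 hours lie above all controls, and in the DUSP10 panel the groups overlap.

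DUSP1, DUSP2, DUSP4 and DUSP5 encode phosphatases of the nucleus. DUSP1, also called MKP-1, which acts on p38 and JNK as well as ERK, lies on chromosome 3 from 53838319 to 53841423 (OryCun2.0, minus strand, gene ID 100340993). Its level was 168, 136 and 163 CPM in the control libraries and 1261, 1228 and 1077 CPM at 3 hours. It read 224, 173 and 157 CPM at 3 days and 160, 108 and 84.8 CPM at 14 days. The 3 libraries at 3 hours were close to each other and far above all others, while those at 3 days and 14 days overlapped the controls. The change at 3 hours was 7.64-fold (log2 fold change 2.93 ± 0.25 SE, adjusted p = 3.89e-05). At 3 days it was 0.25 ± 0.23 on the log2 scale (adjusted p = 0.47).

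DUSP2, known mainly from activated immune cells, spans bases 95158095 to 95160072 of chromosome 2 (plus strand, gene ID 100353754) and had low levels in the eyes without the operation. In control it read 0.38, 0.60 and 0.35 CPM, which were 16, 24 and 14 counts, and at 3 hours 22.9, 23.7 and 15.0 CPM. The values were 0.57, 0.68 and 0.65 CPM at 3 days and 0.74, 2.45 and 0.42 CPM at 14 days. Only the libraries at 3 hours were high, apart from a smaller value in TL14d replicate 2. With a 45.9-fold difference at 3 hours (log2 fold change 5.52 ± 0.63, adjusted p = 0.000131), it had the largest ratio to control of the 9 members when all libraries were used. Without control replicate 3 its log2 fold change was 5.33 and that of SPRY4, 6.52, was larger. At 3 hours the marker sums of neutrophils (1752, 2792 and 1050 CPM), macrophages (692, 973 and 637 CPM) and endothelium (886, 1211 and 606 CPM) all had the same order over the 3 libraries as DUSP2. The sums of the other marker lists had other orders. Those of T cells were 13.9, 13.5 and 7.87 CPM and those of B cells 2.54, 8.59 and 3.48 CPM. At 3 days the neutrophil sums (739, 613 and 126 CPM) still lay above every control, while DUSP2 overlapped control and had another order. The part of these cells in its level was not tested.

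DUSP4 and DUSP5, both nuclear and acting on ERK, differed in how far they rose. DUSP4 is on unplaced sequence (bases 84398548 to 84410758 of the joined pieces, minus strand, gene ID 100351542). It read 33.4, 21.3 and 39.8 CPM in control and 128, 56.4 and 102 CPM at 3 hours, a 3.03-fold change (log2 fold change 1.60 ± 0.36, adjusted p = 0.00509). This was the smallest change of the 8 members called. At 3 days its libraries read 25.5, 24.9 and 16.1 CPM and at 14 days 40.8, 53.5 and 28.0 CPM, both overlapping control.

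DUSP5 (chromosome 18, 58114315 to 58128355, plus strand, gene ID 100343162) rose 29.2-fold at 3 hours, from 3.65, 3.18 and 5.32 CPM to 121, 129 and 105 CPM (log2 fold change 4.87 ± 0.48, adjusted p = 7.25e-05). At 3 days the libraries still read 22.1, 22.4 and 15.2 CPM, all above the controls, which was a 4.91-fold difference (log2 fold change 2.30 ± 0.44, adjusted p = 0.0137). At 14 days they read 5.38, 14.7 and 4.07 CPM and overlapped control. The call at 3 days was lost without control replicate 1, without control replicate 2 or without TL3d replicate 2, with adjusted p between 0.0513 and 0.0561 and log2 fold changes between 2.15 and 2.23.

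DUSP6, also called MKP-3, is a cytoplasmic phosphatase that is selective for ERK, and it lies on chromosome 4 from 68380267 to 68384377 (minus strand, gene ID 100355690). It read 9.33, 18.5 and 18.8 CPM in control and 544, 244 and 223 CPM at 3 hours. The levels were 133, 127 and 93.3 CPM at 3 days and 16.5, 76.9 and 51.2 CPM at 14 days. All libraries at 3 hours and 3 days lay above the controls, and at 14 days the 2 libraries other than TL14d replicate 1 did. The fold change was 21.7 at 3 hours (log2 fold change 4.44 ± 0.60, adjusted p = 0.000315) and 7.59 at 3 days (log2 fold change 2.92 ± 0.56, adjusted p = 0.0142). The call at 3 days was lost without the same libraries as for DUSP5, with adjusted p between 0.0505 and 0.0542. The log2 fold changes in those fits lay between 2.66 and 3.07. At 14 days the log2 fold change was 1.63 ± 0.54 (adjusted p = 0.388), and without TL14d replicate 1 it was 2.04 with an adjusted p of 0.0354. In that fit DUSP6 was 1 member called among the 9, against 3.51% of all genes called higher.

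DUSP10, which acts on JNK and p38, did not follow the others. It lies on chromosome 16 from 51344003 to 51393509 (plus strand, gene ID 100352279). Its libraries read 11.1, 9.28 and 5.39 CPM in control, 16.3, 8.01 and 9.66 CPM at 3 hours, 9.19, 10.6 and 8.59 CPM at 3 days and 10.9, 11.5 and 10.3 CPM at 14 days. The groups overlapped at all times. The log2 fold change at 3 hours was 0.40 ± 0.31 (adjusted p = 0.323), and it was -0.12 with library sizes alone and -0.01 without TL3h replicate 1. It was the single member with more than 1 transcript in the deposited table. Of its 3 transcripts, 1 carried most of the reads, with group means of 9.05 to 11.1 CPM, and the other 2 had group means under 1 CPM.

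The Sprouty genes rose at 3 hours as well. SPRY2 (chromosome 8, 82254040 to 82259184, minus strand, gene ID 100352158) read 14.0, 15.5 and 18.9 CPM in control and 82.7, 110 and 82.3 CPM at 3 hours, a 5.68-fold change (log2 fold change 2.51 ± 0.25, adjusted p = 7.04e-05). At 3 days it had fallen below control, to 7.29, 6.0 and 9.08 CPM, a level 2.16-fold lower (log2 fold change -1.11 ± 0.24, adjusted p = 0.0177). It was the single member called lower than control at any time, against 7.0% of all genes called lower at 3 days. This call was lost without control replicate 2, without TL3d replicate 1 or without TL3d replicate 2 (adjusted p between 0.0561 and 0.0700), with log2 fold changes from -0.98 to -1.14. At 14 days SPRY2 read 13.8, 9.02 and 15.9 CPM and overlapped control.

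SPRY4 (chromosome 3, 24304905 to 24317299, minus strand, gene ID 100356356) varied most among the controls, with 0.33, 1.33 and 7.4 CPM, or 14, 53 and 295 counts. The highest of these was control replicate 3. At 3 hours the libraries read 66.1, 101 and 69.0 CPM, all far above control, and the fold change was 26.1 (log2 fold change 4.71 ± 1.01, adjusted p = 0.00382). The size of this fold rested on control replicate 3, without which the log2 fold change was 6.52 (adjusted p = 0.00058). The libraries read 8.94, 4.71 and 8.62 CPM at 3 days, overlapping control through control replicate 3, and 1.14, 4.73 and 5.89 CPM at 14 days, also overlapping control. At 3 days the log2 fold change was 1.30 ± 0.89 (adjusted p = 0.315), and without control replicate 3 it was 3.15 (adjusted p = 0.0316). With both control replicate 3 and TL14d replicate 1 left out, a choice made after the data were seen, it was 2.67 at 14 days (adjusted p = 0.0371).

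ERRFI1, the inhibitor of the EGFR kinase domain, lies on chromosome 13 from 141851232 to 141855829 (plus strand, gene ID 100352684). It rose 19.7-fold at 3 hours, from 34.2, 24.8 and 43.0 CPM to 688, 589 and 734 CPM (log2 fold change 4.30 ± 0.24, adjusted p = 1.69e-05), with little spread among the libraries. At 3 days it read 52.0, 64.6 and 46.0 CPM, each above the highest control. This 1.59-fold difference missed the threshold (log2 fold change 0.67 ± 0.21, adjusted p = 0.0554). It passed without control replicate 3 (adjusted p = 0.0348), with DESeq2 (0.0245) and with limma-trend (0.0443). At 14 days the libraries read 30.7, 35.7 and 26.9 CPM, within the range of the controls.

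At 3 days, 2 of the 9 members were higher than control (DUSP5 and DUSP6) and 1 was lower (SPRY2), against 10.6% and 7.0% of all genes. In DUSP5, DUSP6 and ERRFI1 each library at 3 days lay above each control library, as in 23.8% of all genes. The number called was 0 without control replicate 2 and without TL3d replicate 2, where 2.46% and 2.37% of all genes were called, and rose to 5 without control replicate 3, where 14.7% of all genes were called and SPRY4 and ERRFI1 were added. It was 1 without control replicate 1, where 3.25% of all genes were called. With both control replicate 3 and TL14d replicate 1 left out it was 5, against 25.6% of all genes. At 14 days no member was called, and 0.00% of all genes were. An unadjusted p under 0.05 was found for 3 members, which were DUSP2 (0.0259), DUSP5 (0.0404) and DUSP6 (0.0124), against 10.4% of all genes, and DESeq2 and limma-trend also called 0. With both control replicate 3 and TL14d replicate 1 left out, DUSP6 (2.19, adjusted p = 0.0431) and SPRY4 were called at 14 days, against 6.64% of all genes.

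Between 3 hours and 3 days, 8 of the 9 members fell, against 19.0% of all genes called lower. In these 8 each library at 3 days lay below each library at 3 hours, as in 28.5% of all genes. The falls were not of equal size. DUSP2 was 32.1-fold lower at 3 days than at 3 hours (log2 fold change -5.01 ± 0.61, adjusted p = 0.000229), ERRFI1 12.4-fold (-3.63 ± 0.24, 1.68e-05) and SPRY2 12.3-fold (-3.62 ± 0.26, 2.41e-05). DUSP6 was 2.86-fold lower (-1.51 ± 0.53, adjusted p = 0.0477). That call was near the threshold and was lost in 14 of 20 alternatives. The adjusted p was highest without TL3h replicate 1, at 0.199, with a log2 fold change of -0.95. Log2 fold changes of the other 4 were -2.69 for DUSP1, -2.11 for DUSP4, -2.57 for DUSP5 and -3.41 for SPRY4. The fall of SPRY4 (adjusted p = 0.0177) missed the threshold without TL3d replicate 2 (0.0706). These falls share the libraries at 3 hours with the comparison to control.

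Between 3 days and 14 days no member was called, against 2.24% of all genes. An unadjusted p under 0.05 was found for 6 of the 9, against 22.6% of all genes. DESeq2 called 3 of them, DUSP5, SPRY2 and ERRFI1, against 11.7% of all genes called by DESeq2, and limma-trend called 0. Without TL14d replicate 2, the edgeR test called DUSP5 (log2 fold change -2.07, adjusted p = 0.0249) and SPRY2 (0.99, adjusted p = 0.0458), against 3.87% of all genes.

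**Figure D3:**
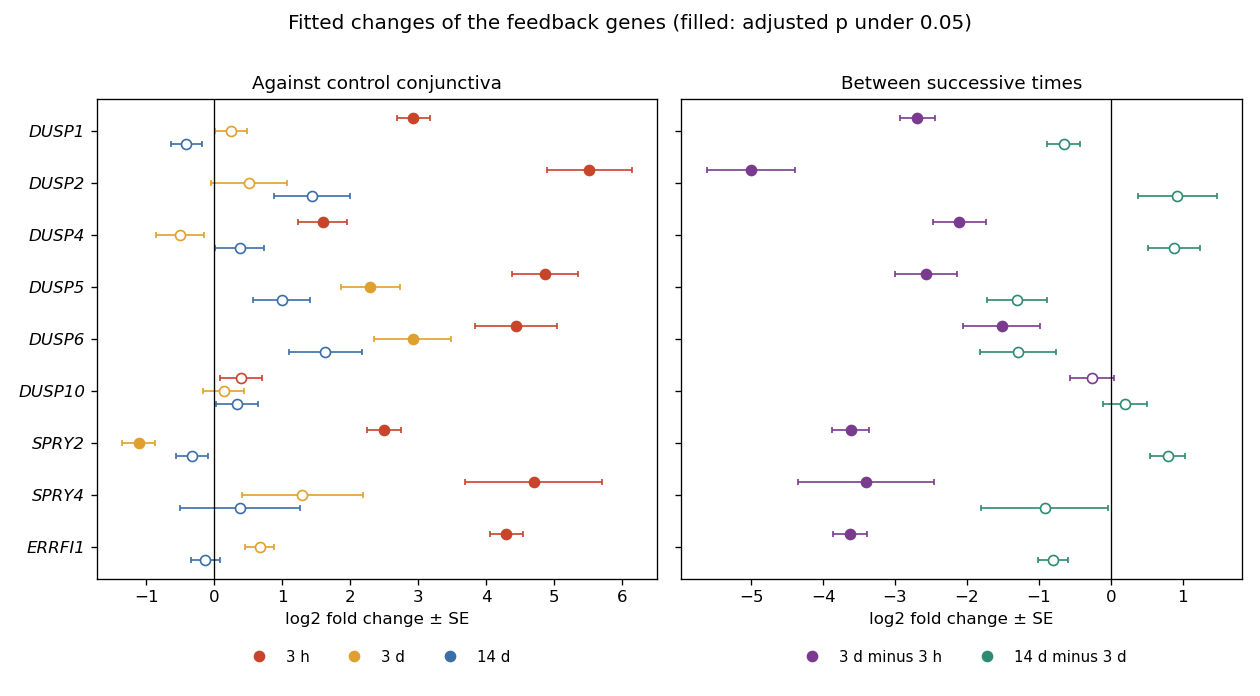
Log2 fold change ± SE of each member against control (left) and between successive times (right), with filled points for an adjusted p under 0.05. At 3 hours 8 points are filled, at 3 days DUSP5 and DUSP6 to the right of 0 and SPRY2 to the left, and at 14 days none.

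Levels of different genes were compared per length, in the FPKM values deposited by the authors. In control conjunctiva DUSP1 stood first with 73.0 ± 7.30 FPKM (SD, n = 3), above DUSP4 with 14.4 ± 3.91 FPKM, and the libraries of these genes did not overlap. From DUSP4 down to DUSP6 (5.59 ± 1.88 FPKM) the order was DUSP4, ERRFI1, SPRY2 and DUSP6, and neighbours in it overlapped. SPRY4 (0.61 ± 0.76 FPKM) and DUSP2 (0.28 ± 0.09 FPKM) were the lowest by mean and overlapped. At 3 hours DUSP1 was still first, with 402 ± 27.3 FPKM. ERRFI1 followed with 145 ± 19.2 FPKM and DUSP6 with 87.5 ± 46.7 FPKM, and these overlapped. DUSP10 was then last, at 2.44 ± 0.96 FPKM. At 3 days DUSP6 took the second place with 43.0 ± 8.73 FPKM, without overlap with DUSP1 (87.5 ± 17.9 FPKM) above it or ERRFI1 (16.4 ± 3.20 FPKM) below it.

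Both the summed level and the make-up of the measured phosphatase RNA differed between the groups. To compare the sum between libraries, the FPKM of the 6 measured phosphatases was divided by the TMM factor of each library, which was 0.768 to 0.783 at 3 hours and 1.03 to 1.13 elsewhere. The sum so scaled was 77.0 to 98.1 in control, 649.9 to 851 at 3 hours, 116 to 165 at 3 days and 70.9 to 107 at 14 days. As deposited, it was 87.0 to 104, 509 to 662, 122 to 181 and 76.1 to 117 FPKM. The percent of the sum from each gene does not depend on this scaling. DUSP6 made up 3.28%, 7.86% and 6.4% of this sum in the control libraries. Its share was 21.4%, 11.5% and 11.6% at 3 hours, 27%, 30.3% and 27.1% at 3 days, and 5.64%, 24.3% and 24.2% at 14 days. So the share of DUSP6 was larger at 3 days than at 3 hours in every library, although its level was lower. The share of DUSP5, which also acts on ERK, was 5.66% to 7.23% at 3 hours and 5.26% to 6.32% at 3 days. The sum leaves out DUSP7, another ERK phosphatase, described below. Its mean was 13.3 FPKM in control, 53.35 FPKM at 3 hours and 41.4 FPKM at 3 days. DUSP1 held 72.4% to 76.7% of the sum in control and 64.5% to 75.6% at 3 hours. Its share was 53.5% to 59.3% at 3 days and 44.25% to 70.9% at 14 days. DUSP4 held 11.5% to 17.3% in control, 3.41% to 6.79% at 3 hours, 5.96% to 7.57% at 3 days and 16.9% to 21.6% at 14 days. These sums and shares are given as a description and were not tested. In the 14-day group the shares of TL14d replicate 1 lay apart from those of the other 2 libraries for DUSP1 and DUSP6.

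**Figure D4:**
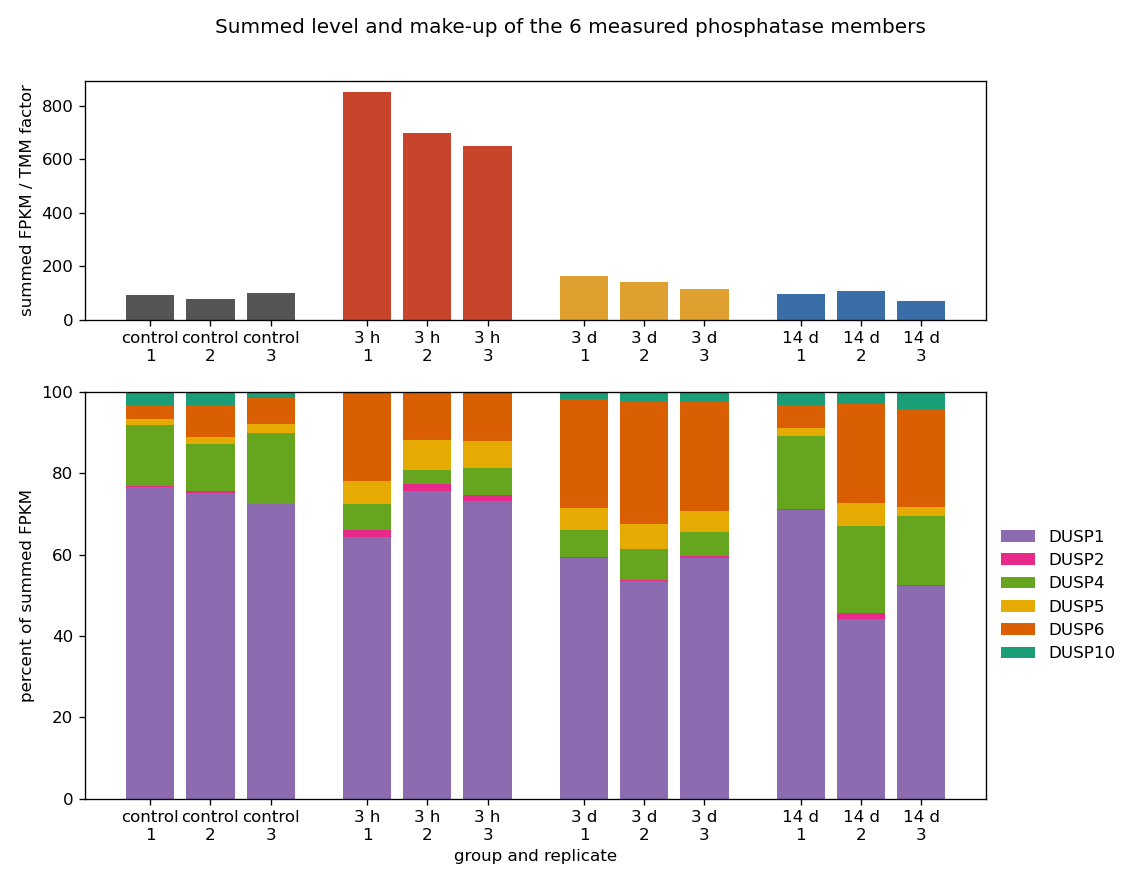
Summed FPKM of DUSP1, DUSP2, DUSP4, DUSP5, DUSP6 and DUSP10, divided by the TMM factor, in each library (top) and the percent of that sum from each gene (bottom). The sum is 649.9 to 851 at 3 hours against 77.0 to 98.1 in control. The DUSP6 share is 27% to 30.3% at 3 days against 3.28% to 7.86% in control, and TL14d replicate 1 has a share of 5.64%.

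Genes outside the 10 were read from lists of relatives and of the pathway. The shares of all genes called in the same fit, beside which each count below stands, were 23.2% higher and 22.2% lower at 3 hours, and 10.6% higher and 7.0% lower at 3 days. Of the 89 list genes tested, 26 were higher and 14 lower at 3 hours, and 16 were higher and 7 lower at 3 days. The 23 calls at 3 days, where 17.6% of all genes were called in either direction, moved with the libraries used, and so did the share of all genes. They became 3 without control replicate 1 (3.25% of all genes), control replicate 2 (2.46%) or TL3d replicate 1 (2.97%), and 2 without TL3d replicate 2 (2.37%). Without TL14d replicate 1 they became 34 (25%). At 3 hours the 40 calls, against 45.4% of all genes, ranged from 34 to 44 without 1 library, against 34.9% to 48.1% of all genes. Of the 3 further typical MAP kinase phosphatases, DUSP7, DUSP9 and DUSP16, 2 passed the filter. DUSP7, another cytoplasmic ERK phosphatase, read 26.6, 34.4 and 54.1 CPM in control, 238, 161 and 233 CPM at 3 hours and 154, 106 and 90.6 CPM at 3 days. It was higher at both times, by 2.46 ± 0.33 (adjusted p = 0.000315) and by 1.61 ± 0.32 (adjusted p = 0.0156) on the log2 scale. DUSP16, which acts on JNK and p38, was not called at any time (log2 fold change 0.11 ± 0.21 at 3 hours, adjusted p = 0.693). DUSP9 was under 3 counts in each library.

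Among the 5 Sprouty and SPRED genes outside the members, 3 were higher than control at 3 hours and 1 at 3 days (23.2% and 10.6% of all genes). The median log2 fold change of the 5 was 2.0 at 3 hours and 0.33 at 3 days, against 0.02 and 0.00 for all genes. SPRY1 read 23.5, 27.5 and 73.8 CPM in control and 207, 204 and 174 CPM at 3 hours (log2 fold change 2.23 ± 0.56, adjusted p = 0.00883), and fell by 3.04 to 3 days (adjusted p = 0.00267). SPRED3, of the SPRED family that holds back RAF activation, was also high at 3 days. It read 0.26, 0.35 and 0.40 CPM in control, 14.5, 11.9 and 5.42 CPM at 3 hours and 16.2, 7.05 and 5.41 CPM at 3 days, with log2 fold changes of 4.96 ± 0.79 (adjusted p = 0.00075) and 4.81 ± 0.78 (adjusted p = 0.0102). Its difference between the 2 times was -0.15 ± 0.65 (adjusted p = 0.875). SPRED1 was higher at 3 hours by 2.0 ± 0.46 (adjusted p = 0.00578). SPRED2 (log2 fold change 0.23 ± 0.15, adjusted p = 0.24) and SPRY3 (1.0 ± 0.82, adjusted p = 0.36) did not pass.

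The atypical dual-specificity phosphatases, small enzymes without the kinase-binding domain of the typical ones, had a median log2 fold change of 0.07 at 3 hours, near the 0.02 of all genes. Of 11 tested, 4 were higher and 2 lower at 3 hours, where 23.2% and 22.2% of all genes were, and 1 was higher at 3 days, where 10.6% were. DUSP14 had the largest change among those called, 3.48 ± 0.48 at 3 hours (adjusted p = 0.000354) and 1.89 ± 0.46 at 3 days (adjusted p = 0.0238). DUSP18 (0.90) and DUSP12 (0.64) were higher and DUSP19 (-1.88) and DUSP22 (-0.76) were lower at 3 hours on the log2 scale. Of 10 other brakes tested, 2 were higher and 2 lower at 3 hours, and 3 were higher and 2 lower at 3 days, with medians of 0.15 and 0.05. Of all genes, 23.2% and 22.2% were higher and lower at 3 hours and 10.6% and 7.0% at 3 days. PEA15, which holds ERK in the cytoplasm, was higher at both times (1.79 and 1.23). CBLB, a ubiquitin ligase for active receptors, was higher at 3 hours (1.01), and CBL at 3 days (0.72). NF1, which switches off RAS, was lower at 3 hours (-0.55), PEBP1 at both times (-0.47 and -0.60), and LRIG1, an inhibitor of EGFR family receptors, at 3 days (-1.12).

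IL17RD, also called SEF, a membrane inhibitor of FGF and ERK signalling, had another time course than the members. It read 22.6, 20.5 and 9.46 CPM in control and 8.11, 20.7 and 12 CPM at 3 hours, but 166, 153 and 122 CPM at 3 days. The 3 libraries at 3 days lay above all of those. Its log2 fold change at 3 days was 3.07 ± 0.82 against control (adjusted p = 0.0326) and 3.44 ± 0.84 against 3 hours (adjusted p = 0.0096). At 14 days it read 8.27, 157 and 84.4 CPM, with TL14d replicate 1 below every control and the other 2 above them.

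The kinases that these brakes act on were examined next. Of 12 MAP kinase genes tested, 1 was higher and 3 were lower at 3 hours (23.2% and 22.2% of all genes), and 2 were higher at 3 days (10.6% of all genes). Their median log2 fold change at 3 hours was -0.36. MAPK3 (ERK1) read 195, 171 and 155 CPM in control and 123, 129.7 and 109 CPM at 3 hours, with a log2 fold change of -0.53 ± 0.20 (adjusted p = 0.0535). MAPK8 (JNK1) had a log2 fold change of 0.58 ± 0.23 (adjusted p = 0.0596). MAPK14 (p38 alpha) was lower at 3 hours (log2 fold change -0.62 ± 0.18, adjusted p = 0.018). MAPK9 (-0.94) and MAPK4 (-3.0) were lower too, MAPK6, an atypical kinase, was higher at 3 hours (2.02) and 3 days (1.15), and MAPK11 was higher at 3 days (2.36). MAPK4 was near the limit of 3 counts at 3 hours. It read 0.19, 0.12 and 0.15 CPM there, against 0.45, 0.63 and 2.71 CPM in control.

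A step up, 5 of 15 upstream kinases were higher and 3 lower at 3 hours, with a median log2 fold change of -0.06, and 2 were higher and 1 lower at 3 days. The shares of all genes were 23.2% and 22.2% at 3 hours and 10.6% and 7.0% at 3 days. MAP2K3 and MAP2K6, which both activate p38, went opposite ways. MAP2K3 was higher at 3 hours by 2.73 ± 0.27 (adjusted p = 7.31e-05) and at 3 days by 1.14, and MAP2K6 was lower at 3 hours (-3.67 ± 0.71, adjusted p = 0.0023) and at 3 days (-2.97). MAP3K8 (1.80) and MAP3K7 (0.88) were also higher and MAP2K5 (-1.73) and BRAF (-0.79) lower at 3 hours, and MAP2K4 (0.80) was higher at 3 days.

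At the top of the cascade, 2 of 7 EGF family ligands were higher at 3 hours and 1 at 3 days (23.2% and 10.6% of all genes), with medians of 0.24 and -0.13 over the 7 on the log2 scale. HBEGF read 3.20, 3.05 and 4.52 CPM in control and 272, 101 and 175 CPM at 3 hours (log2 fold change 5.67 ± 1.06, adjusted p = 0.00188). At 3 days it read 59.9, 16.4 and 9.25 CPM, all above the controls, and missed the threshold (log2 fold change 2.99 ± 0.94, adjusted p = 0.0539). AREG read 0.19, 0.35 and 0.38 CPM in control, 80.2, 17.9 and 24.4 CPM at 3 hours and 9.89, 3.11 and 1.02 CPM at 3 days, with log2 fold changes of 7.05 ± 1.33 (adjusted p = 0.00191) and 3.93 ± 1.18 (adjusted p = 0.046). Their receptor EGFR read 487, 482 and 438 CPM in control and 429.8, 499 and 654 CPM at 3 hours (log2 fold change 0.17 ± 0.23, adjusted p = 0.583), and it fell by 0.84 between 3 hours and 3 days (adjusted p = 0.0177). Of 10 receptor tyrosine kinases tested, MET was higher at 3 hours (1.07) and FGFR2 (-3.48), ERBB2 (-2.20) and ERBB3 (-2.07) were lower, and ERBB4 was lower at 3 days (-5.04). ERBB4 then read 0.07, 0.0 and 0.26 CPM, near the limit of 3 counts, against 4.18, 4.65 and 2.48 CPM in control. The median over the 10 was 0.12 at 3 hours, where 23.2% of all genes were higher and 22.2% lower, and -1.20 at 3 days, where 7.0% were lower.

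Among 11 genes known to be induced by ERK, 6 were higher and 1 was lower at 3 hours, and 5 were higher and 1 lower at 3 days, with median log2 fold changes of 2.40 and 1.34. Of all genes, 23.2% and 22.2% were higher and lower at 3 hours and 10.6% and 7.0% at 3 days. FOSL1, an AP-1 subunit, read 0.05, 0.03 and 0.75 CPM in control and 117, 115 and 87.5 CPM at 3 hours (log2 fold change 8.59 ± 1.34, adjusted p = 0.000675). PHLDA1 (4.21) and IER3 (3.47) were next, and EPHA4 was lower (-1.57). ETV4, an ETS factor, read 0.09, 0.35 and 0.20 CPM in control, 1.15, 0.08 and 0.88 CPM at 3 hours and 25.1, 14.6 and 8.17 CPM at 3 days, where its log2 fold change was 6.19 ± 1.42 (adjusted p = 0.0206). It was thus high on the same day as IL17RD and not at 3 hours. At 14 days ETV4 read 0.20, 17.7 and 7.78 CPM (adjusted p = 0.346), with TL14d replicate 1 within the range of the controls. Of the same list, ETV1 lay above every control at 3 days but was not called (1.54, adjusted p = 0.12). ETV5 overlapped control at 3 days (0.29, adjusted p = 0.77).

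Because betamethasone was injected and DUSP1 and ERRFI1 are also known glucocorticoid-induced genes, a list of 6 other such genes was examined. The result rested on control replicate 3, which was the highest of the 3 controls for all 6 genes. FKBP5 read 7.26, 8.83 and 454 CPM in control, 185, 231 and 296 CPM at 3 hours and 32.1, 24.6 and 36.1 CPM at 3 days. ZBTB16 read 13.0, 14.0 and 275 CPM in control and 2.05, 2.13 and 4.35 CPM at 3 days. With all controls, 1 of the 6 was higher at 3 hours, SGK1 (log2 fold change 3.23 ± 0.50, adjusted p = 0.000612), with a median of 0.58 over the 6 and 23.2% of all genes called higher. Without control replicate 3, a choice made after the data were seen, 4 were higher (FKBP5, SGK1, KLF9 and PER1), against 22.2% of all genes, and the median was 2.12. At 3 days 2 were lower with all controls, ZBTB16 (-5.15 ± 1.29, adjusted p = 0.0268) and TSC22D3 (-1.79 ± 0.53, adjusted p = 0.0449), with a median of -1.93 and 7.0% of all genes called lower. Without control replicate 3 neither was called (ZBTB16 -2.26, adjusted p = 0.0563, and TSC22D3 -1.38, adjusted p = 0.11), FKBP5 (1.93, adjusted p = 0.0245) and SGK1 (1.52, adjusted p = 0.043) were called higher, against 8.61% of all genes, and the median was -0.40. No gene of any of these lists was called at 14 days against control or against 3 days, but without TL14d replicate 1, 8 of the 89 were called against control, where 4.74% of all genes were.

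**Figure D5:**
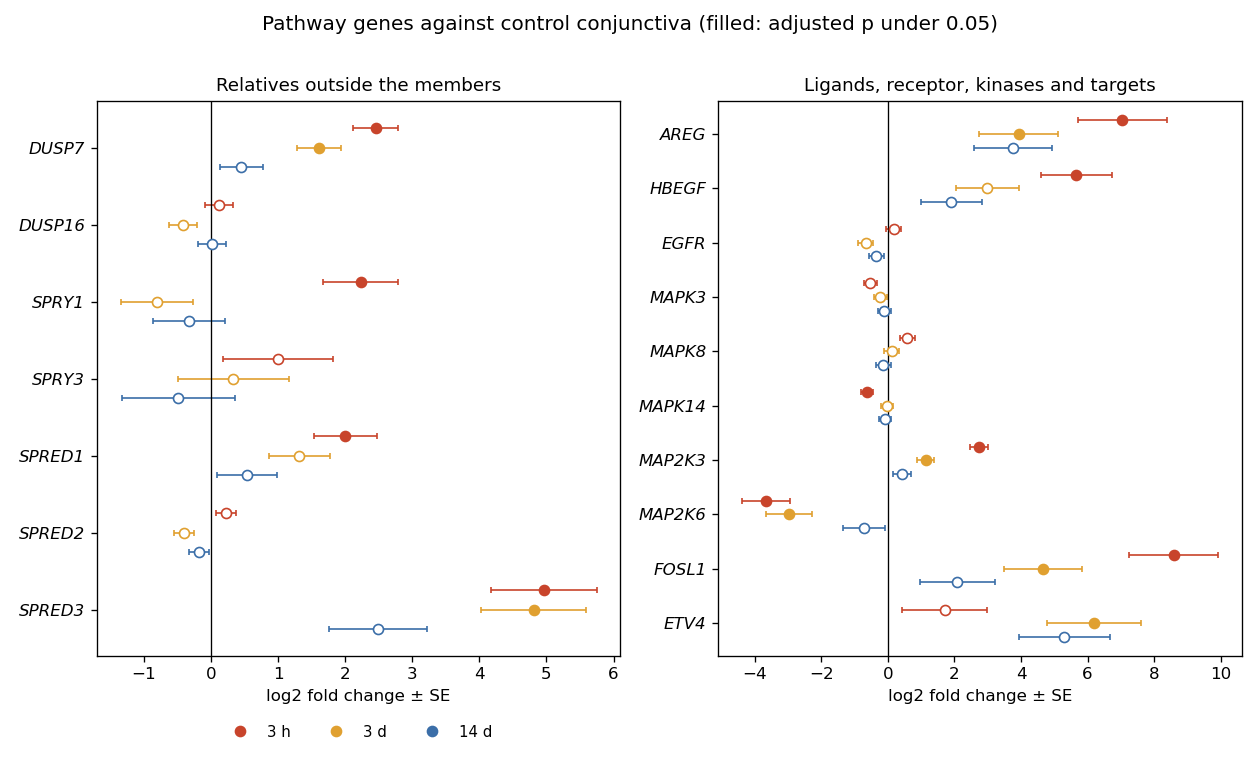
Log2 fold change ± SE against control at each of the 3 times for Sprouty, SPRED and phosphatase genes outside the members (left) and for ligands, EGFR, kinases and ERK-induced genes (right), with filled points for an adjusted p under 0.05. SPRED3 lies near 5 at both 3 hours and 3 days, and MAPK3 and EGFR have no filled point.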

How the data were processed

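The authors mapped paired-end reads with STAR 2.6.0c to OryCun2.0 and made values per gene and transcript with GeneData Profiler Genome. The authors deposited estimated counts (23.4% not whole, and how reads with several placements were shared is not given in the sources used here) and FPKM values, scaled per length and depth. Estimated counts were rounded and filtered with filterByExpr (minimum count 10, minimum total 15), which kept 14835 of 20566 genes. TMM scaling and 1 quasi-likelihood fit of all 12 libraries without covariates followed in edgeR 4.0.16 (R 4.3.3, prior count 0.125), with Benjamini-Hochberg adjustment over all genes tested and a threshold of 0.05. FPKM served for levels between genes and, divided by each library's TMM factor, for the summed level of the phosphatases. Alternatives used limma 3.58.1, DESeq2 1.42.0, other scalings, no filter, 6 libraries, a replicate block, and libraries left out. In 18 pairs of same-numbered libraries the deviations correlated from -0.16 to 0.53. Differently numbered libraries were not compared in this way, so these values cannot show whether the numbers mark pairs. The samples were treated as unpaired because the labels do not tie eyes to each other. No 2 libraries were copies of each other. The labels name separate samples but not separate animals, so p-values measure the spread between these samples. The limit of 3 counts covers counting error only.

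The members and the gene lists were chosen with earlier results of these data known. All members found, the typical phosphatases and the Sprouty and SPRED genes are named, and from every other list up to 3 called genes per direction with the largest change, plus MAPK3, MAPK8, MAPK14 and EGFR. ETV1 and ETV5 were added beside ETV4. Some genes that this rule covers are not reported here. DUSP28, MAP2K2, CCND1 and FGFR3 had no row of their name and were not analysed here. DUSP8 had none either, and 2 rows annotated as DUSP8 under other names are described apart from the members. Protein and promoter sequences were planned but not used here.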

Additional observations from a re-analysis of the deposited data

Results flagged for a closer look

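The effect at 3 days differed from the effect at 3 hours, both against the same controls, in 8 of the 9 measured members, by the test of TL3d against TL3h, where 19.0% of all genes were called lower. The difference on the log2 scale was -2.69 for DUSP1, -5.01 for DUSP2, -2.11 for DUSP4, -2.57 for DUSP5, -1.51 for DUSP6, -3.62 for SPRY2, -3.41 for SPRY4 and -3.63 for ERRFI1. The smallest, for DUSP6, had an adjusted p of 0.0477 by edgeR's quasi-likelihood test and was lost in 14 of 20 alternatives. DUSP10 differed by -0.26 (adjusted p = 0.533). No outlier test was run on groups of 3 libraries, and libraries that stand apart are described with the values they touch.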

How the results depend on the processing

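The 8 members called at 3 hours stayed at 8 in all alternatives except DESeq2, which called 7 because it gave no adjusted p for SPRY4. The count at 3 days (3) ranged from 0 to 5 over the fits without 1 library, and was 5 with both control replicate 3 and TL14d replicate 1 left out. At 14 days the count (0) ranged from 0 to 1 without 1 library and was 2 with both left out. Between 3 days and 14 days it ranged from 0 to 2 without 1 library and was 3 with DESeq2. With a replicate block the counts were 8, 3, 0, 7 and 0 in the 5 comparisons, where the fall of DUSP6 from 3 hours to 3 days was lost (adjusted p = 0.0631) and no other member changed its call. Requiring a log2 fold change of at least 1 changed no count. Of the members' values, 846 kept direction and side of the threshold, 24 lost and 14 gained a call, and 11 changed sign, none of them called: DUSP10 with library sizes alone (-0.12 at 3 hours, 0.22 from 3 hours to 3 days) and with both libraries left out (-0.13 at 3 days), ERRFI1 with both left out at 14 days (0.0699), and the others without 1 library. Without 1 library the ranges were -0.13 to 1.33 for DUSP2 from 3 days to 14 days, and for DUSP10 -0.0132 to 0.62 at 3 hours, -0.13 to 0.37 at 3 days and -0.42 to 0.14 from 3 hours to 3 days. They were -0.15 to 2.24 for SPRY4 and -0.31 to 0.0613 for ERRFI1, both at 14 days. With other scalings, tests, filter or only the 6 libraries compared, counts of single pathway lists moved by over 1.5 times in 19 of 180 values, 14 at 3 days and 5 at 14 days. Without 1 library, a choice made after the data were seen, the list genes called (40, 23 and 0) ranged from 34 to 44 at 3 hours, 2 to 34 at 3 days and 0 to 8 at 14 days, while the share of all genes called ranged from 34.9% to 48.1%, 2.37% to 25% and 0.00% to 4.74%. With both left out they were 49, 35 and 14, against 50.3%, 25.6% and 6.64% of all genes. Without control replicate 3, the glucocorticoid-induced genes called went from 1 to 4 at 3 hours, and the 2 called at 3 days were other genes, in the opposite direction. Per transcript, the calls were 8, 3, 0, 7 and 0. The cause of these changes was not tested.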

Other observations

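Although no row carried the name DUSP8, 2 rows were annotated as DUSP8 under other names. LOC100358230 (dual specificity protein phosphatase 8) and LOC103346402 (the same, with the addition "like") lie 62 bases apart on the joined unplaced sequence of OryCun2.0, from 400884238 to 400889550 and from 400889613 to 400891324, both on the plus strand. They were looked at after the values of the members were seen. LOC100358230 read 0.24, 0.35 and 0.53 CPM in control, 3.58, 1.2 and 2.52 CPM at 3 hours and 1.55, 2.19 and 1.11 CPM at 3 days. Its log2 fold change was 2.70 ± 0.72 at 3 hours (adjusted p = 0.0114) and 2.11 ± 0.70 at 3 days (adjusted p = 0.0632). LOC103346402 gave 3.25 ± 1.02 (adjusted p = 0.025) and 2.68 ± 1.0 (adjusted p = 0.0865). At 14 days both read at the control level in TL14d replicate 1 (0.30 and 0.27 CPM) and higher in replicate 2 (2.04 and 1.60 CPM) and replicate 3 (2.31 and 1.11 CPM). Whether the 2 rows are pieces of 1 gene cannot be told from the table.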
